A study of Mus musculus with 12 samples.

Results

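The genes described here encode nuclear subunits of the mitochondrial respiratory chain and ATP synthase, together with assembly factors that carry the same kind of symbol. They were taken by annotated symbol: those that begin with Nduf (complex I), Sdh followed by a to d (complex II), Uqcr (complex III), Cox4 to Cox8 (complex IV) or Atp5 (complex V). On the array 91 genes matched, and 82 of these were detected (detection p below 0.05) on 4 or more of the 12 arrays, among 10453 genes tested. A gene with several probes was represented by the probe of highest mean signal. By complex the 82 were 34 genes of complex I, 7 assembly factors of complex I, 4 genes of complex II, 4 assembly factors of complex II, 6 genes of complex III, 11 of complex IV and 16 of complex V. Differences between groups are no term of this rule. The gene Ndufa4 was placed in complex IV, of which its protein is a subunit. Cox7a2l, counted there too, encodes a factor that joins complexes into supercomplexes. Ndufs5-ps is a pseudogene symbol, and since its probe may bind transcripts of the parent gene its value is uncertain.

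RNA came from cultured mouse hepatic progenitor cells, epithelial precursors of the liver, sorted as DAPI-, CD45-, CD31- and TER119- cells that were EpCAM+, CD24+ and CD133+. All groups were grown in a medium holding FBS, IL-6, HGF, EGF, dexamethasone, 14 mM glucose, 1 mM sodium pyruvate and 10 mM nicotinamide, and were starved of serum for 24 h. The cells received 0.1% BSA (control), IL-4 at 50 ng/mL or IL-13 at 50 ng/mL, with 4 Illumina beadchip arrays in each of the 3 groups. The length of exposure, the mouse strain and the age were not stated in the labels. Nor do the labels say whether replicates were separate cultures or animals, and the p-values therefore describe the spread among these arrays, which could be technical.

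The chain oxidises NADH and succinate and passes their electrons through ubiquinone and cytochrome c to oxygen. Complexes I, III and IV pump protons across the inner mitochondrial membrane, complex II does not, and complex V uses the proton gradient to make ATP. Every complex apart from complex II also holds subunits encoded by mitochondrial DNA, and assembly factors build the complexes without staying in them. IL-4 and IL-13 both use the IL-4 receptor alpha chain and activate STAT6, a transcription factor. In macrophages IL-4 is known to raise oxidative metabolism together with the coactivator PGC-1β.

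Between 18469 and 19869 of 45281 probes were detected on an array, and arrays of the same group correlated across genes with r of 0.993 to 0.997. Each of 2 chips carried 2 arrays of all 3 groups, but a group kept the same positions on both, so position and group cannot be told apart. Of 8 listed progenitor markers 6 were detected (Krt18, Krt19, Prom1, Cd24a, Sox9 and Krt7), while the probe of the gate gene Epcam was detected on no array. The summed signal of these 6 was 9341 to 10830 in control, 10930 to 12690 with IL-4 and 11730 to 12450 with IL-13. Of 4 stellate cell and fibroblast markers Acta2 and Des were detected and Pdgfrb and Col1a1 on no array. The summed signal of Acta2 and Des was 252.5 to 471 in control, 114 to 242 with IL-4 and 79.4 to 151 with IL-13. Of 5 leukocyte markers Csf1r and Cd14 were detected and Adgre1 on no array. The summed signal of the 2 detected was 887 to 939 in control, 1003 to 1089 with IL-4 and 992 to 1109 with IL-13. In the progenitor sum as in the leukocyte sum, both cytokine groups lay above control without overlap. The part of these markers in the results was not tested. Of the hepatocyte markers Apoa1 and Ttr were detected and Alb and Cyp3a11 on no array, and of the endothelial markers Kdr was detected and Pecam1 on no array. In bulk RNA, fewer cells of a type and less RNA per cell cannot be told apart.

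Neither cytokine changed any respiratory chain gene past the threshold. With IL-4, 0 of the 82 genes had an adjusted p under 0.05 (limma, Benjamini-Hochberg over all genes tested), while 3.47% of all genes tested passed, 2.15% higher and 1.32% lower. The lowest adjusted p among the 82 was 0.0830, for Atp5e. With IL-13 the count was also 0 of 82, against 5.73% of all genes, 3.5% higher and 2.23% lower, and the lowest adjusted p was 0.191, for Ndufa9. At an unadjusted p under 0.05, 9 of the 82 were higher with IL-4 and 0 lower, where 14.1% of all genes were past it, 6.79% higher and 7.28% lower. For IL-13 the counts were 2 higher and 1 lower, against 17.8% of all genes, 9.2% higher and 8.58% lower. With a trended and robust variance in limma the adjusted counts were again 0 for both cytokines.

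With IL-4, 4 of the 82 had all treated arrays above all control arrays and 0 had them below, where 4.32% and 4.11% of all genes did, so the count of 4 is near the background. They were Atp5e, Ndufb9, Cox7b and, named after its values were seen, Ndufb5, another complex I membrane-arm gene (0.21 ± 0.11 SE on the log2 scale; adjusted p = 0.456). With IL-13, 1 gene (Sdhd) was wholly above control and 0 wholly below, against 6.03% and 4.92% of all genes. The 95% interval of the difference lay inside a 1.5-fold change in either direction for 82 of 82 genes with each cytokine. The same held for 96.8% of all genes with IL-4 and 95.7% with IL-13, so this share is near the background. The median half-width of the interval was 0.18 on the log2 scale, and the number of arrays limits this precision.

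**Figure D1:**
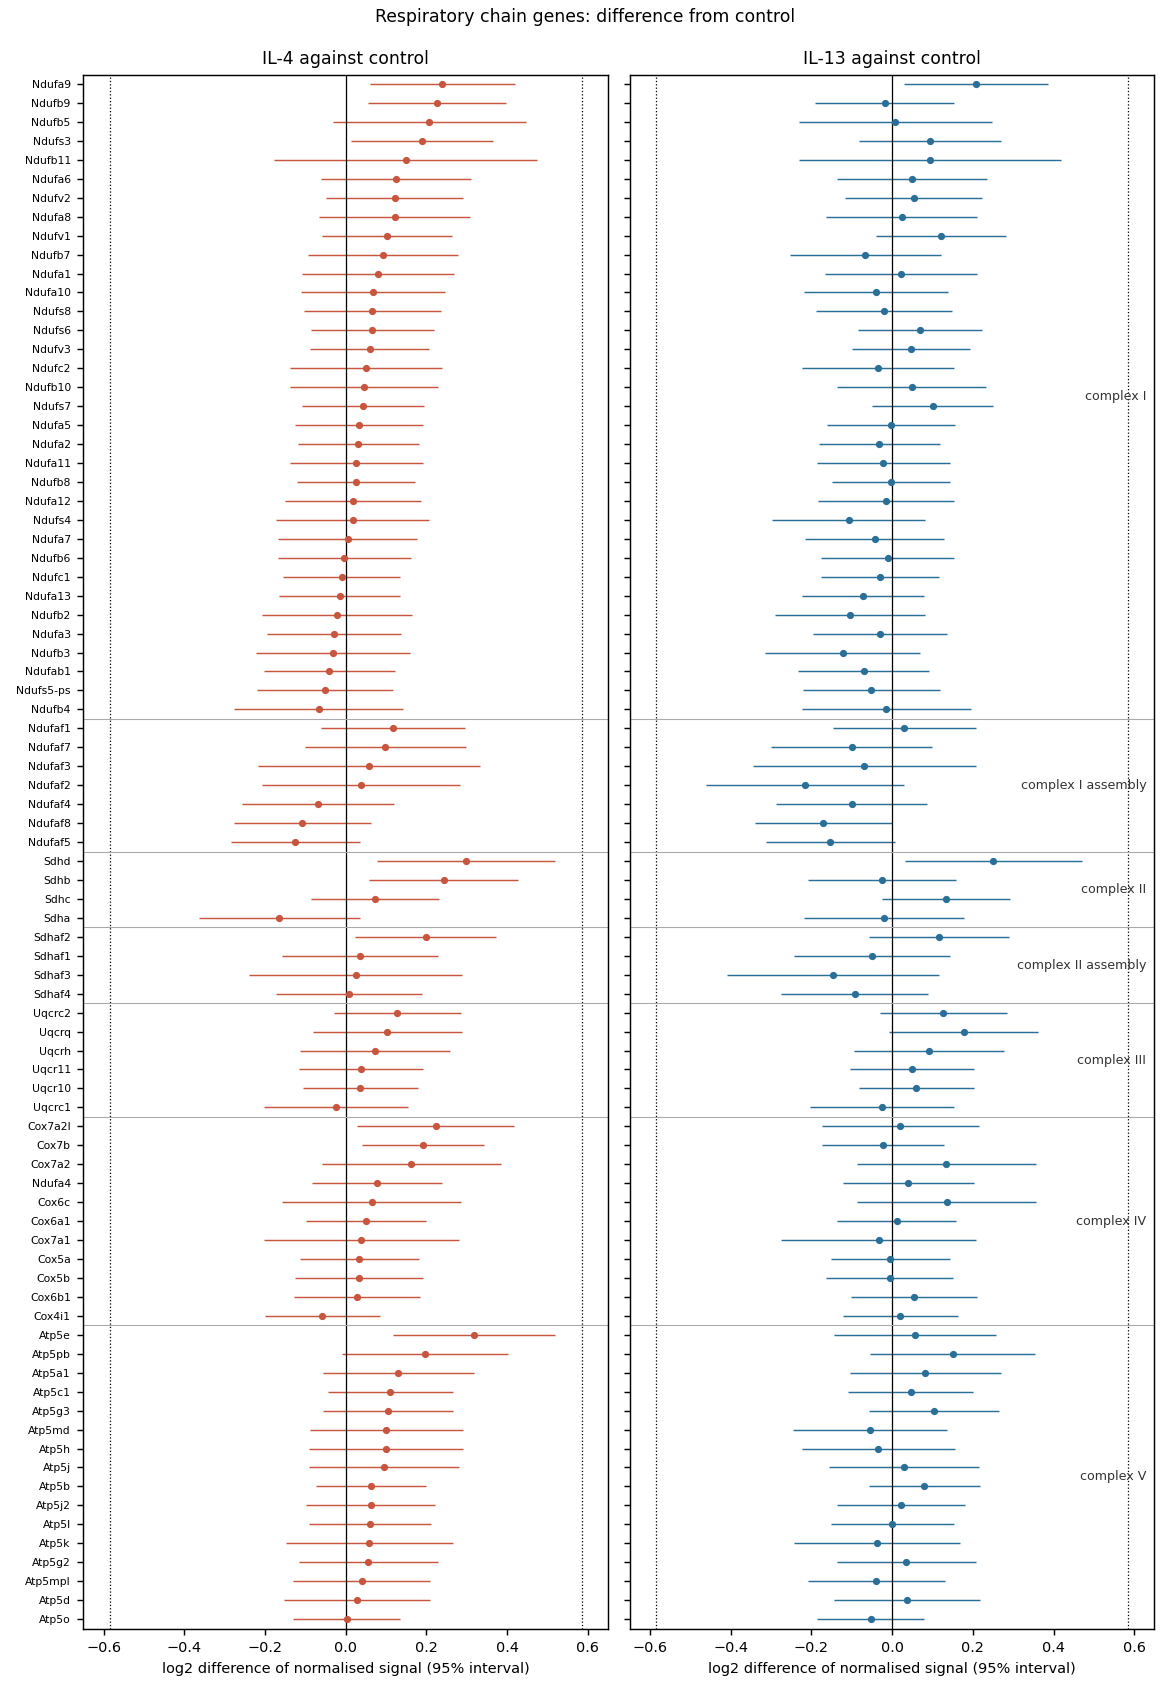
Log2 difference of normalised signal from control (horizontal axis) for each of the 82 respiratory chain genes (vertical axis, by complex), for IL-4 and for IL-13, with points at the fitted difference, bars for 95% intervals and dotted lines at a 1.5-fold change, which no interval reaches. With IL-4, 67 points lie above 0 when arrays are set to common quantiles, as drawn (46.5% of all genes tested). The count is 60 when each array is scaled to its 75th percentile (45.2% of all genes). Scaling each array to its median leaves 29, where 25.5% of all genes are positive.

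The signs of the IL-4 differences leaned upward, and this depended on how arrays were scaled. With common quantiles 67 of the 82 genes had a positive IL-4 difference, where 46.5% of all genes did. With each array scaled to its 75th percentile 60 of 82 were positive (45.2% of all genes). But 29 of 82 were with each array scaled to its median (25.5% of all genes) and 27 of 82 in the submitters' processed values (24.4%). The submitters' values also have a common array median, so they are close to median scaling. The median IL-4 difference of the 82 was 0.058 on the log2 scale against -0.011 over all genes with common quantiles, -0.029 against -0.083 with median scaling and -0.033 against -0.049 in the submitters' values. Above the median of all genes under the same scaling lay 69, 66 and 48 of the 82. With 75th percentile scaling the median IL-4 difference was 0.041 against -0.013 over all genes, with 66 of the 82 above the latter. For IL-13, 40 of 82 were positive with common quantiles, where 48.6% of all genes were, but 15 were with median scaling (36.6% of all genes) and 14 in the submitters' values (36.2%). The median IL-13 difference was -0.0032 against -0.0050 over all genes, -0.085 against -0.048 and -0.077 against -0.025 under these scalings in turn, and 43, 29 and 23 of the 82 lay above the median of all genes. With 75th percentile scaling 22 of 82 were positive with IL-13 (45.2% of all genes). The median was then -0.053 against -0.016, with 29 of the 82 above the latter. On chip 1 alone the median IL-4 difference was 0.086 and on chip 2 alone 0.012. Both cytokines were set against the same 4 control arrays, so their differences are not independent.

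Atp5e encodes the epsilon subunit in the central stalk of ATP synthase and had the largest IL-4 difference of the 82 genes. Its normalised log2 signal was 7.18, 7.09, 6.85 and 7.20 on control arrays 1 to 4, 7.25, 7.46, 7.35 and 7.53 on the IL-4 arrays, and 6.98, 7.08, 7.17 and 7.31 on the IL-13 arrays. Every IL-4 array lay above every control array, while the IL-13 arrays overlapped both other groups. The IL-4 difference was 0.32 ± 0.10 (SE; 1.25-fold, 95% interval 1.09 to 1.43; adjusted p from limma = 0.0830). Over 29 alternative settings it stayed between 0.15 and 0.42, with adjusted p from 0.0567 to 0.373. The IL-13 difference was 0.056 ± 0.10 (adjusted p = 0.830), and it was -0.11 on chip 1 and 0.22 on chip 2.

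**Figure D2:**
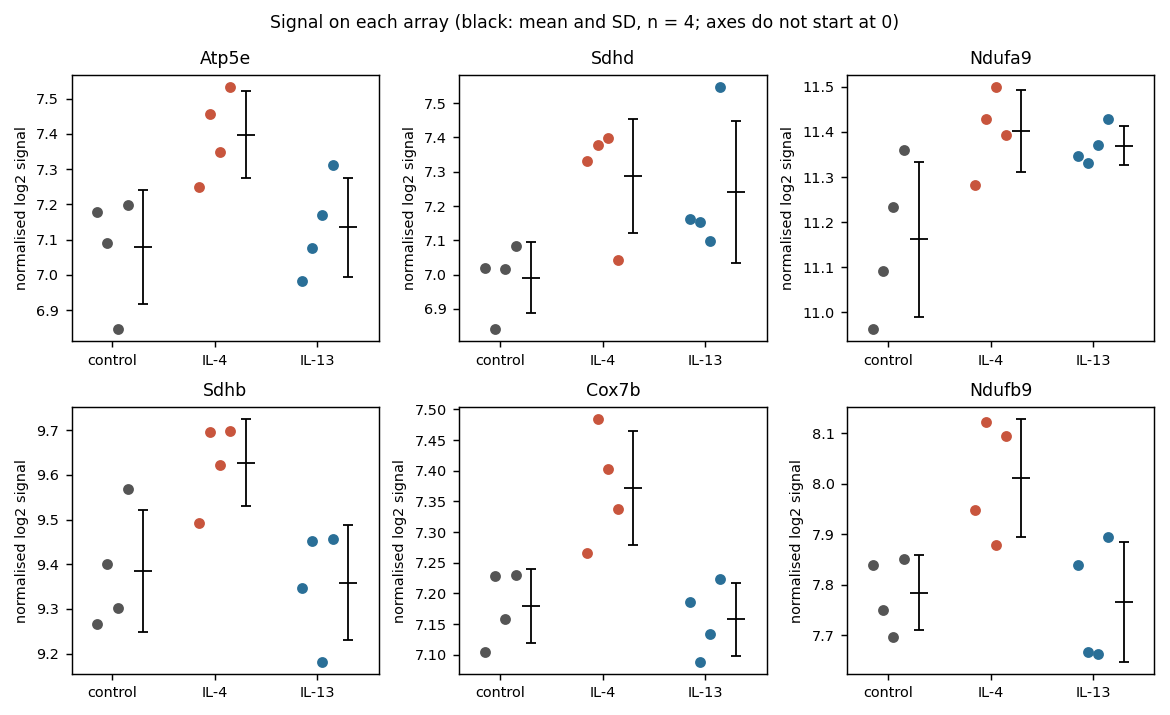
Normalised log2 signal on each array (vertical axis, not starting at 0) of Atp5e, Sdhd, Ndufa9, Sdhb, Cox7b and Ndufb9 in the control, IL-4 and IL-13 groups, with the mean and SD of 4 arrays beside the points. All IL-4 points of Atp5e, Cox7b and Ndufb9 lie above all control points, and the IL-4 points of Sdhb and Cox7b lie above all IL-13 points.

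The other ATP synthase genes differed less than Atp5e with IL-4, though not all did with IL-13. Atp5pb, which encodes a subunit of the peripheral stalk, read 10.05, 10.04, 10.09 and 10.39 on control arrays 1 to 4, 10.33, 10.57, 10.23 and 10.24 on the IL-4 arrays, and 10.37, 10.34, 10.13 and 10.34 on the IL-13 arrays. Control arrays 1 to 3 lay below every IL-4 array, and control 4 lay inside the IL-4 range. The IL-4 difference of Atp5pb was 0.20 ± 0.10 (SE; adjusted p = 0.388), 0.40 on chip 1 and -0.0092 on chip 2, and its IL-13 difference was 0.15 ± 0.10 (0.464), 0.30 and -0.0051 on the chips. Further Atp5pb probes differed by 0.24 and 0.25 with IL-4 and by 0.075 and 0.14 with IL-13. Another, dim at a mean log2 signal of 5.10, differed by -0.057 and -0.080. The catalytic beta subunit gene Atp5b had differences of 0.063 (IL-4, adjusted p = 0.752) and 0.080 (IL-13, 0.584), each negative under 2 of 4 other scalings. For Atp5a1, the alpha subunit gene, they were 0.13 (0.571) and 0.082 (0.703). The rotor ring is made of c subunits encoded by several genes. Of these Atp5g2 differed by 0.055 with IL-4 (0.836; negative under 2 scalings) and 0.035 with IL-13 (0.888; negative under 3). Atp5g3 differed by 0.10 (0.609) and 0.10 (0.529; negative under 2). Atp5md, a small membrane subunit gene, had the lowest IL-13 value of the complex, -0.056 (0.823). All 16 genes of complex V had positive IL-4 differences with common quantiles (median 0.079; 46.5% of all genes) and 15 of 16 with 75th percentile scaling (45.2% of all genes). But 8 of 16 did with median scaling (25.5% of all genes) and 7 of 16 in the submitters' values (24.4%). Above the median of all genes under these scalings in turn lay 16, 16, 16 and 13 of the 16.

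Complex II, succinate dehydrogenase, feeds electrons from succinate into ubiquinone and is also an enzyme of the tricarboxylic acid cycle. Sdhd encodes a membrane anchor subunit and read 7.02, 6.84, 7.02 and 7.08 on control arrays 1 to 4, 7.33, 7.38, 7.40 and 7.04 on the IL-4 arrays, and 7.16, 7.15, 7.10 and 7.55 on the IL-13 arrays. All IL-13 arrays lay above all control arrays, with IL-13 4 well above the other 3, and of the IL-4 arrays IL-4 4 fell inside the control range. The difference of Sdhd was 0.30 ± 0.10 with IL-4 (SE; 1.23-fold, 95% interval 1.06 to 1.43; adjusted p = 0.160) and 0.25 ± 0.10 with IL-13 (1.19-fold, 95% interval 1.02 to 1.39; adjusted p = 0.200). On chip 1 its IL-4 difference was 0.42 and on chip 2 0.17. Sdhb encodes the iron-sulfur subunit and read 9.27, 9.40, 9.30 and 9.57 on control arrays 1 to 4, 9.49, 9.70, 9.62 and 9.70 on the IL-4 arrays, and 9.35, 9.45, 9.18 and 9.46 on the IL-13 arrays. IL-4 1 lay below the highest control array and the other 3 IL-4 arrays above it, while every IL-4 array exceeded every IL-13 array. The IL-4 difference of Sdhb was 0.24 ± 0.087 (adjusted p = 0.177) and its IL-13 difference -0.025 ± 0.087 (0.927), the latter 0.066 on chip 1 and -0.12 on chip 2. Sdhc, the other anchor gene, differed by 0.072 with IL-4 (0.752; negative under 2 scalings) and by 0.13 with IL-13 (0.386).

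Sdha, the gene of the flavoprotein that oxidises succinate, stood at the edge of the detection rule. It was detected on 2 of 4 control arrays, 0 of 4 IL-4 arrays and 2 of 4 IL-13 arrays. The control mean was 4.55 and the measured IL-4 mean 4.38, which was not well above background. Sdha read 4.37, 4.47, 4.62 and 4.73 on control arrays 1 to 4 and 4.38, 4.41, 4.31 and 4.44 on the IL-4 arrays. On the IL-13 arrays it read 4.74, 4.33, 4.59 and 4.45, so all 3 groups overlapped. In limma the adjusted p was 0.479 for IL-4 against control and 0.679 for IL-13 against IL-4. Against a bound on the IL-4 mean, the control mean was 1.015-fold and the IL-13 mean 1.001-fold, and neither shows a difference. For this bound each IL-4 array took whichever was larger, its dimmest detected probe or its Sdha probe, while the other means included undetected arrays. Just outside the rule was Cox6b2, detected on 3 arrays. Of the complex II assembly genes, Sdhaf2, needed to attach the flavin to the Sdha protein, differed by 0.20 ± 0.082 with IL-4 (SE; adjusted p = 0.264) and 0.12 with IL-13 (0.513). Sdhaf3, which acts on the iron-sulfur subunit, differed by 0.024 (0.959; negative under 2 scalings) and -0.15 (0.604).

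Complex I takes electrons from NADH. Ndufa9 encodes an accessory subunit near the ubiquinone site and read 10.96, 11.09, 11.23 and 11.36 on control arrays 1 to 4, 11.28, 11.43, 11.50 and 11.39 on the IL-4 arrays, and 11.35, 11.33, 11.37 and 11.43 on the IL-13 arrays. Control 4 lay inside the ranges of both cytokine groups, and the other 3 control arrays lay below every treated array. The IL-4 difference of Ndufa9 was 0.24 ± 0.085 (SE; adjusted p = 0.169) and its IL-13 difference 0.21 ± 0.085 (0.191). Without control 4 the IL-4 difference was 0.31 and its adjusted p 0.0438, the lowest in a range up to 0.828 over 29 alternatives. On chip 1 the difference was 0.33 with IL-4 and 0.31 with IL-13, and on chip 2 it was 0.15 and 0.10.

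Ndufb9, an accessory subunit gene of the membrane arm, read 7.84, 7.75, 7.70 and 7.85 on control arrays 1 to 4, 7.95, 8.12, 7.88 and 8.10 on the IL-4 arrays, and 7.84, 7.67, 7.66 and 7.89 on the IL-13 arrays. All its IL-4 arrays lay above all control arrays, and the IL-13 arrays overlapped both groups. The differences of Ndufb9 were 0.23 ± 0.082 with IL-4 (SE; adjusted p = 0.178) and -0.018 ± 0.082 with IL-13 (0.947). Of the same arm, Ndufb4 had the lowest IL-4 difference of the complex, -0.067 (0.837), and Ndufb3 the lowest IL-13 difference, -0.12 (0.534).

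The core subunits of complex I carry out its redox steps, and 0 of the 5 measured here passed. For Ndufv1, which encodes the NADH-binding subunit, they were 0.10 (IL-4, adjusted p = 0.619) and 0.12 (IL-13, 0.447; negative under 1 scaling). Ndufv2, with an iron-sulfur cluster, had 0.12 (0.554) and 0.054 (0.803; negative under 3 scalings). Of the subunits that lead to ubiquinone, Ndufs3 differed by 0.19 with IL-4 (0.309) and 0.094 with IL-13 (0.625). Ndufs7 differed by 0.043 (0.858; negative under 2 scalings) and 0.10 (0.516), and Ndufs8 by 0.066 (0.798; negative under 2 scalings) and -0.020 (0.939). With common quantiles 25 of the 34 complex I genes had a positive IL-4 difference (46.5% of all genes) and 13 a positive IL-13 difference (48.6%). These counts were 20 and 7 with 75th percentile scaling (45.2% of all genes in each), and 10 and 5 with median scaling (25.5% and 36.6%). Above the median of all genes under these scalings in turn lay 27, 25 and 25 of the 34 with IL-4, and 15, 10 and 10 with IL-13. In the submitters' values 15 and 8 did.

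The complex I assembly factors with symbols that begin with Nduf had the lowest median of any class in the IL-13 comparison. Their median IL-13 difference was -0.10 on the log2 scale, with 1 of 7 positive, where 48.6% of all genes were. This median was negative under every scaling tried, from -0.16 to -0.086. That of all genes was negative too, from -0.048 to -0.0025, and 0 or 1 of the 7 lay above it. The 9 further assembly factors of complex I, which carry other symbols, did not share this low median. With common quantiles their median IL-13 difference was 0.048, with 5 of 9 positive, near the share of all genes. For these 9 the other scalings were not tried. Ndufaf2, which acts late in assembly, read 8.42, 8.42, 8.18 and 8.58 on control arrays 1 to 4, 8.37, 8.60, 8.47 and 8.31 on the IL-4 arrays, and 8.26, 8.28, 7.80 and 8.40 on the IL-13 arrays. IL-13 3 lay below all other arrays, and the other 3 IL-13 arrays lay inside the control range. Its IL-13 difference was -0.22 ± 0.12 (SE; adjusted p = 0.357). Ndufaf5, which modifies the Ndufs7 protein, and Ndufaf8, its partner, had IL-13 differences of -0.15 (0.307) and -0.17 (0.276). A further Ndufaf5 probe disagreed in sign, with 0.20 for IL-4 and 0.18 for IL-13. In the submitters' processed values the Ndufaf8 difference was -0.17 with an adjusted p of 0.0366. With IL-4 the 7 factors named Nduf ranged from -0.12 (Ndufaf5, 0.508) to 0.12 (Ndufaf1, a factor of early assembly, 0.601).

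Complex III passes electrons from ubiquinol to cytochrome c. Its core subunit gene Uqcrc2 differed by 0.13 (IL-4, adjusted p = 0.489) and 0.13 (IL-13, 0.406). The other core gene, Uqcrc1, differed by -0.024 (0.939) and -0.026 (0.924). Uqcrq, a small subunit gene, had the largest IL-13 difference of the complex, 0.18 ± 0.088 (SE; 0.303). With common quantiles 5 of 6 complex III genes were positive with IL-4 (46.5% of all genes) and 5 of 6 with IL-13 (48.6%). These counts were 5 and 3 with 75th percentile scaling (45.2% of all genes in each), and 2 in each comparison with median scaling (25.5% and 36.6%). Above the median of all genes under these scalings in turn lay 5, 5 and 5 of the 6 with IL-4, and 5, 4 and 4 with IL-13. In the submitters' values 4 and 2 did.

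Complex IV reduces oxygen. Cox7b encodes a small subunit and read 7.10, 7.23, 7.16 and 7.23 on control arrays 1 to 4, 7.27, 7.48, 7.40 and 7.34 on the IL-4 arrays, and 7.19, 7.09, 7.13 and 7.22 on the IL-13 arrays. All IL-4 arrays lay above every array of the other groups, by a narrow margin between IL-4 1 and the highest control array. The IL-4 difference of Cox7b was 0.19 ± 0.072 (SE; adjusted p = 0.199) and its IL-13 difference -0.022 ± 0.072 (0.922). Cox7a2l, the supercomplex factor, read 11.04, 10.94, 10.85 and 11.20 on control arrays 1 to 4, 11.24, 11.37, 11.19 and 11.12 on the IL-4 arrays, and 11.19, 11.09, 10.84 and 10.99 on the IL-13 arrays. Control 4 and IL-13 1 lay inside the IL-4 range, and all other control and IL-13 arrays lay below it. The IL-4 difference of Cox7a2l was 0.22 ± 0.093 (SE; adjusted p = 0.263) and its IL-13 difference 0.020 (0.947; negative under 3 scalings). Cox6c, another small subunit gene, had the largest IL-13 difference of the complex, 0.14 ± 0.11 (0.560). Cox4i1, a regulatory subunit gene, differed by -0.058 with IL-4 (0.788) and 0.021 with IL-13 (0.923; negative under 3 scalings).

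Several complex IV subunits exist as paralogues used in different tissues. The widely expressed Cox4i1, Cox6a1, Cox6b1, Cox7a2 and Cox7b were detected on all 12 arrays. The lung form Cox4i2, the heart and muscle forms Cox6a2 and Cox8b and the testis forms Cox7b2 and Cox8c were detected on 0 arrays, and the testis form Cox6b2 on 3. Cox7a1, the heart and muscle counterpart of Cox7a2, was detected on all 12 arrays, at a log2 signal of 5.37 ± 0.25 (SD, n = 4) in control. Its differences were 0.039 (IL-4, adjusted p from limma = 0.926; negative under 2 scalings) and -0.033 (IL-13, 0.927). Those of Cox7a2 were 0.16 (0.546) and 0.13 (0.563), and those of Ndufa4 0.078 (0.734) and 0.041 (0.852; negative under 3 scalings). Cox6a1 and Cox6b1 lay within 0.054 of control in both comparisons (adjusted p 0.782 or higher), with signs that changed under other scalings. Outside complex IV the undetected genes were Ndufs1, the largest core subunit gene of complex I, and Ndufaf6, an assembly factor gene, on 0 arrays, and Uqcrfs1, the Rieske iron-sulfur protein gene of complex III, on 1. For the 9 undetected genes the mean log2 signal of the brightest probe lay between 4.22 and 4.47, not well above background.

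IL-13 and IL-4 were also compared directly. Of the 82 genes 0 passed, as did 0% of all genes tested (limma), and with a trended and robust variance 0 of the 82 and 2 of all genes passed. At an unadjusted p under 0.05, 0 of the 82 were higher with IL-13 and 6 lower, against 8.15% of all genes, 4.97% higher and 3.18% lower. The 6 were Sdhb (-0.27 ± 0.087 SE; adjusted p = 0.479), Atp5e (-0.26 ± 0.10; 0.537), Ndufaf2 (-0.25 ± 0.12; 0.603), Ndufb9 (-0.24 ± 0.082; 0.480), Cox7b (-0.21 ± 0.072; 0.482) and Cox7a2l (-0.20 ± 0.093; 0.603). The IL-13 arrays lay wholly below the IL-4 arrays for 3 genes and wholly above for 0, where 2.07% and 3.24% of all genes did so. The 3 were Sdhb, Cox7b and Atp5mpl, a small ATP synthase subunit gene named after its values were seen. The 95% interval lay inside a 1.5-fold change for 82 of 82 genes and for 99.2% of all genes. The median difference was -0.048 over the 82 and 0.0069 over all genes, and 17 of 82 were positive, where 52.6% of all genes were. The median was negative under every scaling tried, from -0.079 to -0.032, and was -0.084 on chip 1 and -0.020 on chip 2.

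The signal of the 82 genes also varied among arrays of the same group. Taking each gene's deviation from its own mean over 12 arrays, the median over the 82 was -0.041, -0.033, -0.10 and 0.072 on control arrays 1 to 4. It was 0.033, 0.10, 0.010 and -0.0070 on the IL-4 arrays and -0.033, -0.0052, -0.061 and 0.055 on the IL-13 arrays. The groups overlapped, and the median was highest on IL-4 2, control 4 and IL-13 4 and lowest on control 3 and IL-13 3. Of the 82 genes, 21 had their highest signal on control 4 (25.6%, against 14.3% of all genes) and 16 on IL-4 2 (19.5% against 7.94%). The lowest signal of 20 genes was on IL-13 3 (24.4% against 11.2%) and of 19 on control 3 (23.2% against 7.33%).

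Other sets of genes differed between the same arrays. The 73 measured genes of the mitochondrial ribosome had medians of 0.11 on control 4 and 0.087 on IL-4 2, and of -0.070 on control 3. Mean log2 signal of 3 hemoglobin genes was 5.95 on control 4, 5.36 on IL-4 1, 6.77 on IL-4 2 and 8.95 on IL-4 4, and between 4.40 and 4.80 elsewhere. Of 6 erythroid markers 4 were detected, with Alas2 on no array, and their summed signal was 87.4 to 210.5 in control, 98.2 to 1544 with IL-4 and 88.4 to 106 with IL-13. Leaving out control 4, IL-4 2 and IL-4 4, the median difference of the 82 genes was 0.082 with IL-4 and 0.040 with IL-13, and 0 genes of the chain passed (limma). Leaving out control 4 and IL-4 2, which was decided on after seeing the data, gave 0.069 and 0.040.

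**Figure D3:**
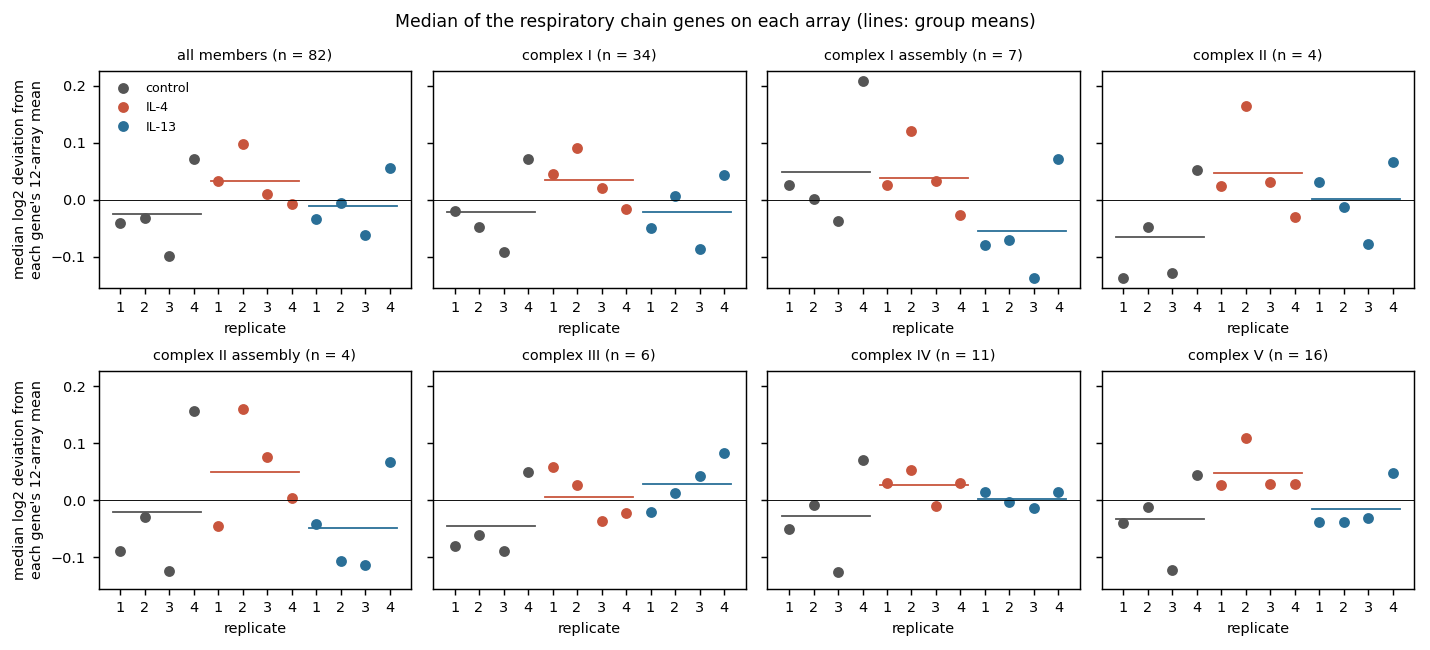
Median log2 deviation of the genes of a set from their own 12-array means (vertical axis) on each array, by group and replicate number (horizontal axis), for all 82 genes and for each class, with lines at the group means. For all 82 genes IL-4 2 (0.098), control 4 (0.072) and IL-13 4 (0.055) lie highest and control 3 (-0.098) lowest, and the groups overlap.

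Further probes gave no call either. Of the 82 genes 29 had 39 further detected probes, and 0 of these passed for either cytokine in a limma fit of all 19915 detected probes. The lowest adjusted p was 0.351 in the IL-4 comparison and 0.213 in the IL-13 comparison, and 3 and 1 of the 39 had an unadjusted p under 0.05. Of all 19915 probes 2.38% passed for IL-4 and 3.79% for IL-13, and 12.2% and 15.9% had an unadjusted p under 0.05. With IL-4 the differences of the 39 ranged from -0.18 to 0.26, and 33 of the 39 had the sign of the chosen probe. With IL-13 they ranged from -0.24 to 0.18, and 24 had the same sign.

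Genes that act beside the chain were counted in the same fit, in which 2.15% of all genes rose and 1.32% fell with IL-4, and 3.5% rose and 2.23% fell with IL-13. Of 19 measured genes for electron carriers and enzymes that feed ubiquinone, 1 rose with IL-4 and 2 with IL-13, and 0 fell. Gpd2, the mitochondrial glycerol 3-phosphate dehydrogenase, which hands electrons from glycerol phosphate to ubiquinone, read 8.961, 8.999, 8.998 and 8.747 on control arrays 1 to 4, 9.662, 9.537, 9.603 and 9.589 on the IL-4 arrays, and 9.716, 9.826, 9.827 and 9.656 on the IL-13 arrays. Every treated array lay above every control array. Gpd2 rose by 0.67 ± 0.077 (SE; adjusted p = 2.61e-05) with IL-4 and by 0.83 ± 0.077 (1.23e-06) with IL-13, and it passed under all 29 alternatives in both comparisons. Prodh, proline dehydrogenase, which also passes electrons to the chain, rose by 0.35 with IL-13 (adjusted p = 0.0468), a call lost under 23 of 29 alternatives. Cycs, the gene of the mobile carrier cytochrome c, differed by 0.11 with IL-4 (0.553) and -0.016 with IL-13 (0.948). Cyc1, the cytochrome c1 gene of complex III, whose symbol the rule does not take, differed by 0.18 (0.316) and 0.019 (0.944).

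Of 18 measured regulators of mitochondrial biogenesis 1 rose with each cytokine and 0 fell. It was Ppargc1b, which encodes PGC-1β, at 5.36, 5.04, 5.18 and 5.12 on control arrays 1 to 4, 6.56, 6.56, 6.18 and 6.49 on the IL-4 arrays, and 6.58, 6.65, 6.50 and 6.52 on the IL-13 arrays. Every treated array lay above every control array. The rise was 1.28 ± 0.093 for IL-4 (SE; adjusted p = 7.23e-08) and 1.39 ± 0.093 for IL-13 (1.90e-08), and it passed under all 29 alternatives. Its size was as low as 0.49 with IL-4 and 0.57 with IL-13 under some of them. Genes of regulators known to bind respiratory chain promoters did not pass: Nrf1 differed by 0.0071 and 0.12 with IL-4 and IL-13 (adjusted p = 0.982 and 0.547), Gabpa by 0.023 and -0.091 (0.955 and 0.734) and Esrra by -0.013 and 0.080 (0.963 and 0.653). Tfam, the mitochondrial DNA packaging factor, differed by -0.071 and -0.12 (0.761 and 0.445).

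Of 16 measured genes of the tricarboxylic acid cycle and its entry, 1 rose with each cytokine and 0 fell. Pcx, pyruvate carboxylase, which makes oxaloacetate, rose by 0.56 ± 0.12 (SE; adjusted p = 0.00865) with IL-4 and by 0.49 ± 0.12 (0.0160) with IL-13, where control 2 exceeded IL-13 1. These calls were lost under 4 and 7 of 29 alternatives, among them chip 1 alone and the fit without control 4 and IL-4 2. Of 5 measured genes for hypoxic control of the chain, 1 rose and 1 fell with each cytokine. Egln3, a prolyl hydroxylase gene, rose by 2.02 and 2.33. Pdk1, a kinase that restrains pyruvate oxidation, fell by 0.53 with IL-4 (adjusted p = 0.00279) and by 0.38 with IL-13 (0.0267), calls lost under 2 and 8 of 29 alternatives.

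The remaining sets held 0 genes past the threshold with either cytokine (limma). They were 73 genes of the mitochondrial ribosome, with median differences of 0.030 (IL-4) and -0.043 (IL-13), 57 of the cytosolic ribosome (0.014 and -0.014) and 34 of the proteasome (0.0079 and -0.048). They also included 9 further assembly factors of complex I (0.067 and 0.048), 4 of complex III (-0.038 and -0.054), 21 of complex IV (0.056 and -0.018), 3 of complex V (0.039 and -0.010) and 6 membrane carriers (0.067 and -0.022). At an unadjusted p under 0.05 these sets together held 7 genes higher and 2 lower with IL-4, and 4 higher and 11 lower with IL-13, of 207 genes. Over all genes tested the shares were 6.79% and 7.28% with IL-4 and 9.2% and 8.58% with IL-13. Of the 13 mitochondrially encoded subunits 0 were measured under the listed symbols.

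**Figure D4:**
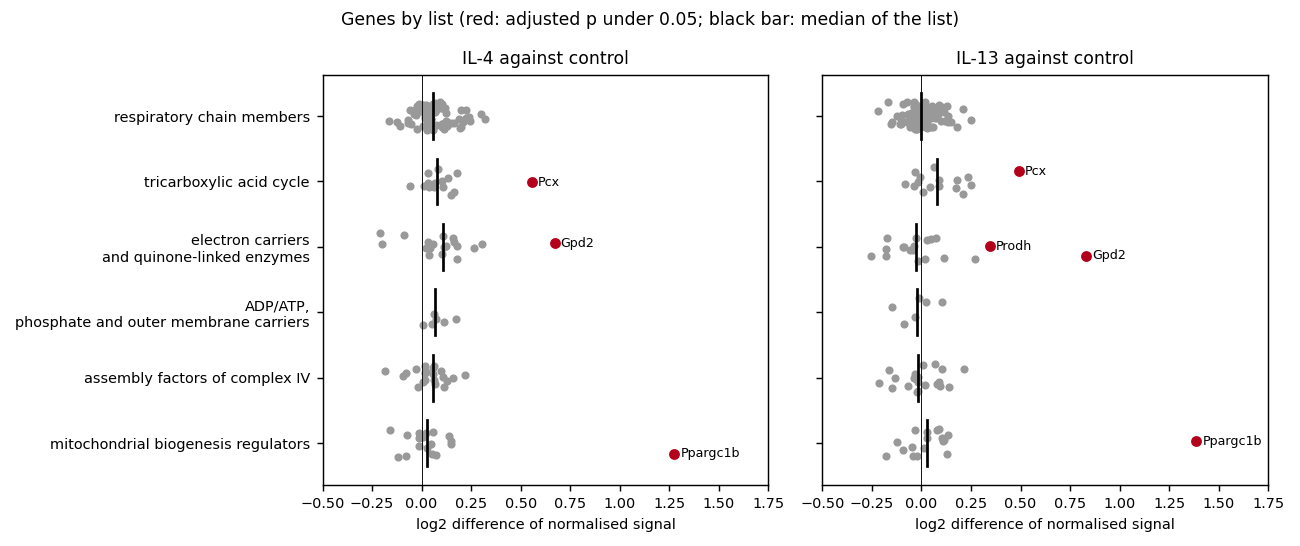
Log2 difference of normalised signal (horizontal axis) of single genes, grouped by list (vertical axis), for IL-4 and for IL-13 against control, with a bar at the median of each list and red points for an adjusted p under 0.05. No respiratory chain gene is red, while Gpd2, Pcx and Ppargc1b are red with both cytokines and Prodh with IL-13. The median of the respiratory chain genes, 0.058 with IL-4 as drawn, is 0.041 with 75th percentile scaling and negative (-0.029) with median scaling. Over all genes tested the IL-4 median is -0.011, -0.013 and -0.083 under these scalings in turn.

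Promoter letters were compared between the chain and all genes. RefSeq promoter windows (build GRCm38.p6, 250 bases before to 50 bases after the annotated start) were found for 72 of the 82 genes, 77 windows in all, and for 8520 of the 10453 genes tested, with 10885 windows. Motifs were searched on both strands, and matches of different motifs could overlap. The letters bound by NRF1 (GCGCA and GCGC separated by 1 base) were in 27.3% of the windows of the chain, in 9.94% of those of all genes tested and in 4.6% of all windows of the table. CGGAAG, the core of sites for ETS factors such as GABPA, was in 48.1%, 30.3% and 16.9%. AAGATGGC, bound by YY1, was in 14.3%, 4.38% and 2.75%, and AAGGTCA, bound by the estrogen-related receptors, in 9.09%, 3.11% and 4.72%. GGGCGG, bound by SP1, was in 49.4%, 61.7% and 35.7%, CCAAT in 41.6%, 37.7% and 37.4%, and TATAAA in 10.4%, 7.74% and 13.6%. The letters bound by STAT6 (TTC and GAA separated by 4 bases) were in 5.19%, 5.3% and 6.95%. These shares were not tested, and the median GC content of the windows was 59% in the chain, 60.7% in the genes tested and 52.7% in all.

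The promoters of Atp5e, Sdhd and Ndufa9, the 3 genes of the chain with the smallest p over the 2 comparisons with control, are shown to set these letters in place. Each runs 5′ to 3′ on the gene's strand, from 250 bases before the start to 30 bases after it, with matches to the motifs above in capitals. Atp5e lies at chr2:174464072-174464351, Sdhd at chr9:50603820-50604099 and Ndufa9 at chr6:126849115-126849394 (GRCm38.p6, minus strand in all 3).
Atp5e: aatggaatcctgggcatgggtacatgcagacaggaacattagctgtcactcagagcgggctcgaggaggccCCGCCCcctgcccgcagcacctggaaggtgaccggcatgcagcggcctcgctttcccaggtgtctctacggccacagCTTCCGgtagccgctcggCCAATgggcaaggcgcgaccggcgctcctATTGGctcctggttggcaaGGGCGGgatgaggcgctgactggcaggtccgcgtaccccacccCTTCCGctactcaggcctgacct
Sdhd: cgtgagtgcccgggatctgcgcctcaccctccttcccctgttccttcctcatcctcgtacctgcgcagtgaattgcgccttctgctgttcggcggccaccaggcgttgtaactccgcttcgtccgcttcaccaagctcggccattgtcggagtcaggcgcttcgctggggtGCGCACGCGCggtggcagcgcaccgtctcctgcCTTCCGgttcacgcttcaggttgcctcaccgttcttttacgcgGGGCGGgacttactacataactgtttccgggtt
Ndufa9: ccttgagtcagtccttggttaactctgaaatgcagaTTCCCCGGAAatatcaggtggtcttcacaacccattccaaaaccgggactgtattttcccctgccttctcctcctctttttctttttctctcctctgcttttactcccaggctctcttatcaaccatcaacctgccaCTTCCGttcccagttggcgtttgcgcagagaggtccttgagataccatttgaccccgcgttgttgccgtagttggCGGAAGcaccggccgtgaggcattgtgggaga
Positions count from the start, with bases before it negative, and name the first base of a match. Atp5e holds the ETS core at -102 and 8, GGGCGG at -179 and -36 and CCAAT at -84 and -55, each on one strand or the other. Sdhd holds the NRF1 letters at -79, the ETS core at -46 and GGGCGG at -3. Ndufa9 holds the ETS core at -77 and -2 and the STAT6 letters at -214. Further matches (AAGGTCA in Atp5e and Sdhd, AAGATGGC in Ndufa9) end beyond the printed stretch.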

How the data were processed

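Bulk RNA of 12 samples was measured on Illumina mouse beadchips. The deposited table gives, per the file headers, a signal intensity and a detection p-value for each probe and array, without normalisation, and GenomeStudio 2011.1 is named per the submitters' processing notes. The authors also deposited processed log2 values, which equal log2 intensity plus a constant of 2.22 to 2.34 for each array, with no background correction seen in the values. All 12 arrays share a median of 8.97 in these values.

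Intensities were background-corrected with neqc of limma 3.58.1 (R 4.3.3), which uses the detection p-values, with an offset of 16, then quantile normalised and taken to log2. Of 45281 probes, 34885 carried 1 symbol in the platform annotation, 18 several and 10378 none, and unnamed probes were left out of gene tests. Probes detected (p under 0.05) on at least 4 of 12 arrays were kept, and the brightest probe stood for a gene. One limma model (lmFit, eBayes) covered all 12 arrays, two-sided, with Benjamini-Hochberg adjustment over 10453 genes, and the procedure was tested on simulated data. No identical arrays were found.

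The genes and lists were chosen with earlier results of these data known. Named genes were those with the extreme differences of each complex, the 3 smallest p-values in each direction, the catalytic subunits, the paralogue pairs and the undetected symbols, with up to 2 called genes per direction of each other list. Replicate numbers were not taken as pairs. Of 12 same-numbered pairs of arrays, 5 correlated above 0.1 in their deviations from the group means (range -0.15 to 0.21). Differently numbered pairs from different groups ranged from -0.22 to 0.34, the highest being control 4 with IL-4 2. Alternatives covered scaling, background, offset, filter, probe choice, variance model, array weights, chip, replicate block, threshold and left-out arrays. Protein sequences of paralogues were not used here.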

Additional observations from a re-analysis of the deposited data

Results flagged for a closer look

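In groups of 4 arrays, a lone array was set apart where its gap to the nearest of the others exceeded Dixon's 95% critical share of the group's range. Chance does this in about 1 of 20 groups, and it was seen in 9 of 138 groups. Atp5pb read 10.39 on control 4, against 10.04 to 10.09 on the other control arrays, and 10.13 on IL-13 3, against 10.34 to 10.37 on the other IL-13 arrays. Sdhd read 7.55 on IL-13 4, against 7.10 to 7.16 on the other IL-13 arrays. Cox7a2 read 7.12 on IL-13 4, against 7.05 to 7.06. Ndufb4 read 6.86 on IL-4 2, with the remaining IL-4 arrays at 6.56 to 6.58. Ndufs7 read 10.80 on IL-4 3, against 10.96 to 10.99. Ndufs8 read 10.85 on IL-13 3, against 11.03 to 11.05. The median deviation of the complex V genes was 0.11 on IL-4 2, with the remaining IL-4 arrays at 0.026 to 0.028, and 0.048 on IL-13 4, against -0.039 to -0.032 on the other IL-13 arrays.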

How the results depend on the processing

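The count of respiratory chain genes past the threshold was 0 in all 3 comparisons and under all alternatives tried apart from those named here. With IL-4 it was 1 (Atp5e) at an adjusted p threshold of 0.1 and between 0 and 1 with 1 array left out, the 1 being Ndufa9 without control 4. With IL-13 it was 2 in the submitters' processed values, both lower: Ndufaf8 and Atp5o, an ATP synthase stalk gene named after its values were seen (-0.16, adjusted p = 0.0481, against -0.053 and 0.735 with common quantiles). The cause was not tested. The median difference of the 82 genes with IL-4 was 0.041 with 75th percentile scaling, -0.029 with median scaling and -0.033 in the submitters' values. With IL-13 it was -0.053, -0.085 and -0.077. With 1 array left out it ranged from 0.034 (without IL-4 2) to 0.094 (without control 4) for IL-4, from -0.019 (without control 3) to 0.040 (without control 4) for IL-13, and from -0.076 to -0.031 for IL-13 against IL-4. With the replicate number as a block (replicate block) the medians were 0.058, -0.0032 and -0.048. They could not differ from the main fit, since each number holds 1 array of every group. Only p can change in that fit, and the lowest adjusted p (limma) was 0.0617, 0.145 and 0.440. Over all genes, IL-4 calls numbered 363, but 101 on chip 2 alone and 190 without the 3 arrays of highest hemoglobin signal, and IL-13 calls numbered 599, but 243 on chip 1 and 186 on chip 2. The split of IL-4 calls was 225 higher and 138 lower with common quantiles, 141 and 193 with median scaling and 120 and 294 in the submitters' values, and for IL-13 it was 366 and 233, 218 and 210, and 203 and 406. Of the 38 genes of the chain named by the rule (Ndufb5 and Atp5o are not among them), some had a difference of 0.2 or more in either direction. They were 6 with IL-4, 3 with IL-13 and 6 for IL-13 against IL-4, and none of these changed sign under the 29 alternatives. Over all 38 genes, 54, 100 and 72 of 1101 values changed sign in these comparisons in turn. Some alternatives cannot change a difference, among them the chip and replicate blocks, the variance model and leaving out an array of the group not compared. They count here as unchanged signs, so these counts understate how readily signs change. The genes of 0.2 or more were also picked by that size in the same data. Signal near background limits Sdha.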
